A study of Homo sapiens with 20 samples.

Results

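The BCL2 family genes described here are 10 genes whose products set the threshold for mitochondrial apoptosis. They were taken as listed gene symbols, and the list was chosen with earlier results of these data known. They are the effectors BAX and BAK1, the BH3-only genes BIK, BAD, BID, BBC3 and BCL2L11, and the anti-apoptotic genes BCL2L1, BCL2L2 and MCL1. All 10 were found among the 12558 genes of the count table, and all 10 had enough counts to be tested, as had 10338 genes in all. HEC-1A is an established human endometrial adenocarcinoma cell line. Its cells carried a stable lentiviral shRNA against EIF4G2 (EIF4G2KD), a factor of non-canonical translation, or a control shRNA (Control). The methods of the study name GFP as the target of the control shRNA, whereas the sample labels name it shNT. The cells were sorted by CD133, a surface antigen that PROM1 encodes. The 4 populations were CD133− EIF4G2KD (5 libraries), CD133− Control (5 libraries), CD133+ EIF4G2KD (5 libraries) and CD133+ Control (4 libraries). Replicate 3 of the CD133+ Control was marked by its label as having failed quality control and was not analysed here. All cells had been selected with puromycin, a single shRNA targeted EIF4G2, and the cells had been separated on anti-CD133 beads before the sort by flow cytometry.

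RNA of 15000 sorted cells per sample was read by bulk MARS-seq, a method that counts transcript 3′ ends. The 19 libraries held 1679447 to 5234905 counts (median 3047418). Values per library are given as CPM, the counts scaled to a common library size, after TMM scaling, and differences as log2 fold changes from edgeR with their standard errors (SE). A gene was called when its adjusted p was under 0.05, its log2 fold change was beyond 0.58 in either direction and its mean normalized count was over 10. The series text speaks of 4 independent experiments while the labels number 5 replicates, and neither says whether a population was separated anew for each. The p-values therefore cover only the variation among these libraries, part of which may be technical.

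Mitochondrial apoptosis starts when BAX and BAK1, once activated, permeabilise the outer mitochondrial membrane and release cytochrome c. Anti-apoptotic members such as the products of BCL2L1 (BCL-xL), BCL2L2 (BCL-w) and MCL1 hold the effectors and the BH3-only proteins in a groove on their surface. BH3-only proteins signal stress to this system: BIK from the endoplasmic reticulum, BAD downstream of growth factor kinases, BID after cleavage by a caspase, BBC3 (PUMA) through its induction by stress, and BCL2L11 (BIM) after cytokine withdrawal and microtubule damage.

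BH3 is a short helix that these proteins share, and that of effectors and BH3-only proteins is the part that enters the groove. Its coding stretch is shown for the members on which the results turn. Each stretch has 42 bases, is read 5′ to 3′ on the coding strand of a GENCODE transcript and comes from GRCh38. The capitals mark the codon of the conserved leucine and the codon pair that ends in the conserved aspartate. The first codon of that pair encodes glycine in 5 of the 6 genes and alanine in BBC3.
BAX, chr19:48955775-48955816, plus strand: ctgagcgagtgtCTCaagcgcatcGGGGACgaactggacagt
BIK, chr22:43127704-43127745, plus strand: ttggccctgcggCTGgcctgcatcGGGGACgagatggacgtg
BID, chr22:17739415-17739456, minus strand: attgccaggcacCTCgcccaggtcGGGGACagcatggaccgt
BBC3, chr19:47226579-47226620, minus strand: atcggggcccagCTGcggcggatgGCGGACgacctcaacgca
BCL2L1, chr20:31721922-31721963, minus strand: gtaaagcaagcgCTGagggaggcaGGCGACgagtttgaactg
MCL1, chr1:150578865-150578906, minus strand: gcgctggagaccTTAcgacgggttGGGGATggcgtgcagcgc

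None of these stretches spans an intron. BIK, BAX and BID carry the same codon pair in capitals, although BAX is an effector and the others are BH3-only genes.

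EIF4G2 itself was read in every library as a check of the labels. CD133− EIF4G2KD libraries held 163, 102, 164, 51.1 and 36.8 CPM, against 360.1, 193, 323, 245 and 333 CPM in the CD133− Control. In the CD133+ EIF4G2KD libraries EIF4G2 was 349.8, 269.99, 129.5, 231 and 253 CPM, against 377, 360.2, 275 and 335 CPM in the CD133+ Control. The CD133− populations did not overlap, whereas the CD133+ populations did: replicate 1 of the CD133+ EIF4G2KD exceeded 2 of the 4 control libraries. The log2 fold change of EIF4G2 was −1.48 (SE 0.33, adjusted p 0.123) in CD133− cells and −0.45 (SE 0.34, adjusted p 0.523) in CD133+ cells, so EIF4G2 was called in neither. PROM1 lay between 0.428 and 1.83 CPM in CD133− EIF4G2KD and between 12.9 and 26.4 CPM in CD133+ EIF4G2KD, and between 0.513 and 3.31 CPM in CD133− Control and 11.6 and 16.5 CPM in CD133+ Control. On the first principal component of all genes (25.0% of the variance), replicates 2, 4 and 5 of the CD133− EIF4G2KD and replicate 3 of the CD133+ EIF4G2KD stood apart from the rest, at scores of 20.0 to 72.7, against at most 1.41 for the other libraries. These 4 libraries were also the lowest in EIF4G2. Epithelial markers were present (5 of 5 in the table); none of 4 stromal and none of 3 endothelial markers was listed, and of 3 immune markers CD68 was listed, at too few counts to be tested.

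BIK encodes a BH3-only killer of the endoplasmic reticulum. It was the only member called in any comparison by the edgeR fit of the 4 population means. BIK fell in CD133+ EIF4G2KD cells relative to CD133+ Control cells. The 5 CD133+ EIF4G2KD libraries held 32.7, 41.3, 56.3, 20.8 and 32.5 CPM of BIK, against 87.7, 96.2, 83.4 and 106 CPM in the 4 CD133+ Control libraries. All 5 knock-down libraries lay below all 4 control libraries, with a gap between replicate 3 of the knock-down and replicate 4 of the control. The means were 36.7 ± 13.2 CPM (SD, n = 5) in CD133+ EIF4G2KD and 93.2 ± 9.83 CPM (SD, n = 4) in CD133+ Control. The log2 fold change was −1.34 (SE 0.20, adjusted p 0.00026), a level 2.53-fold lower in the knock-down. Among all genes tested in this comparison, 3.4% were called lower, and BIK stood at rank 57 by p and at rank 146 counted from the lowest fold change.

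In CD133− cells BIK was not called. The CD133− EIF4G2KD libraries held 76.6, 113, 108, 86.2 and 92.9 CPM, against 78.5, 92.2, 64.3, 84.1 and 66.0 CPM in the CD133− Control. These ranges overlapped, and the knock-down mean was the higher, at 95.3 ± 15.1 CPM against 77.0 ± 11.9 CPM (SD, n = 5 each). The log2 fold change was 0.31 (SE 0.19, adjusted p 0.552), with a 95% interval of −0.08 to 0.69. The difference between the knock-down effects in CD133+ and CD133− cells was tested directly as an interaction and came to −1.65 (SE 0.27, adjusted p 0.00194). In the interaction 1.33% of all genes were called lower.

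Between the sorted populations, BIK was called under the knock-down and not in the Control, a pair of differences whose own difference is the interaction above. BIK was higher in CD133− EIF4G2KD than in CD133+ EIF4G2KD cells by a log2 fold change of 1.37 (SE 0.19, adjusted p 0.00011), where 3.49% of all genes were called higher, and the lowest CD133− library (76.6 CPM) exceeded the highest CD133+ library (56.3 CPM). Between CD133− Control and CD133+ Control the log2 fold change of BIK was −0.28 (SE 0.20, adjusted p 1.00), with a 95% interval of −0.69 to 0.13. In bulk libraries, fewer cells that express BIK and less BIK RNA per cell cannot be told apart. BIK rested on 44 to 157 counts per library in CD133+ EIF4G2KD and on 185 to 434 in the other 3 populations.

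Low EIF4G2 and low BIK did not go together in every library. The 5 CD133− EIF4G2KD libraries, at 36.8 to 164 CPM of EIF4G2, held 76.6 CPM of BIK or more. Within CD133+ EIF4G2KD, replicate 3 had the least EIF4G2 (129.5 CPM) and the most BIK (56.3 CPM), and replicate 1 had the most EIF4G2 (349.8 CPM) with 32.7 CPM of BIK. These values are of EIF4G2 RNA and not of its protein, and what part the EIF4G2 level had in the level of BIK was not tested. With the 4 libraries that stood apart left out, BIK in CD133+ cells changed by −1.55 on the log2 scale (adjusted p 0.000101), and the interaction was −1.81 (adjusted p 0.00316).

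**Figure D1:**
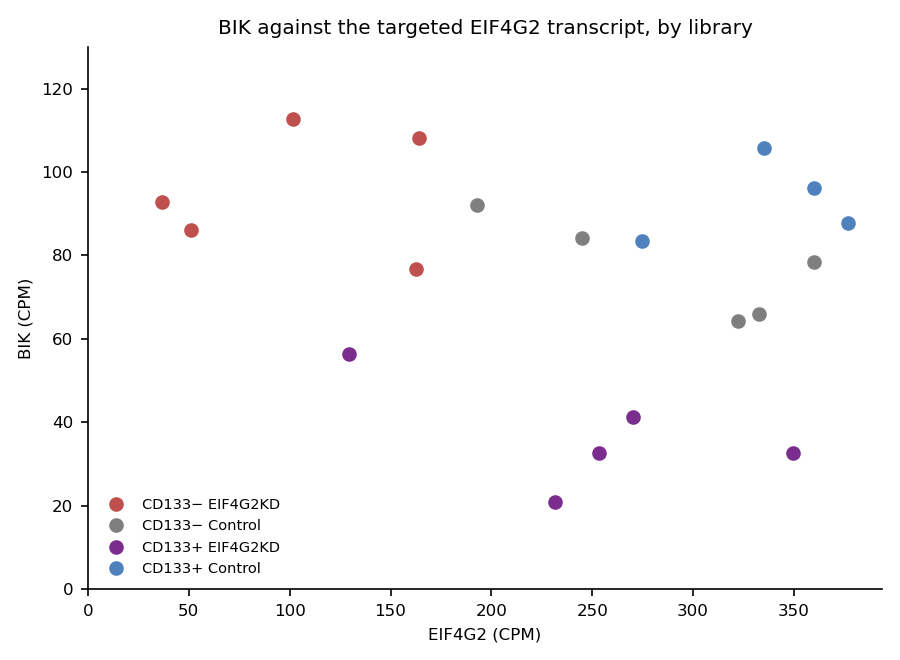
BIK (CPM, vertical axis) against EIF4G2 (CPM, horizontal axis) in the 19 libraries, a point for each library coloured by population. The 5 CD133+ EIF4G2KD libraries lie at 20.8 to 56.3 CPM of BIK and 129.5 to 349.8 CPM of EIF4G2, and all other libraries lie at 64.3 CPM of BIK or more.

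The effectors were lower in mean in CD133+ EIF4G2KD, without passing in the edgeR fit of population means. BAX held 168, 137, 147, 145 and 178 CPM in CD133+ EIF4G2KD, against 227, 166, 184 and 218 CPM in the CD133+ Control. Replicates 1 and 5 of the knock-down reached into the control range. The log2 fold change of BAX was −0.36 (SE 0.13, adjusted p 0.0935), with a 95% interval of −0.62 to −0.09 before adjustment. An edgeR fit with a term for each replicate number (a replicate block) gave −0.32 (adjusted p 0.0335). There BAX passed by its p but stayed under the fold threshold. In CD133− cells BAX averaged 181 ± 13.0 CPM in EIF4G2KD and 181 ± 23.7 CPM in Control (SD, n = 5 each), and the 95% interval of its log2 fold change was −0.25 to 0.25.

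BAK1 held 71.0, 67.4, 44.9, 42.6 and 47.0 CPM in CD133+ EIF4G2KD, against 107, 62.0, 46.6 and 77.7 CPM in the CD133+ Control. Both populations spread widely and overlapped, and the log2 fold change of −0.43 (SE 0.23, adjusted p 0.336) did not pass. BAK1 was 0.53 higher on the log2 scale in CD133− EIF4G2KD than in CD133+ EIF4G2KD (SE 0.22, adjusted p 0.173), which did not pass either. With the replicate block this difference was 0.55 (edgeR, adjusted p 0.0119) and passed by its p.

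The other BH3-only genes formed a pair with lower values in CD133+ EIF4G2KD than in CD133+ Control and a pair with little difference. BID, the substrate of caspase-8, held 25.4, 20.4, 19.02, 20.3 and 23.4 CPM in CD133+ EIF4G2KD, against 36.1, 26.8, 30.2 and 34.8 CPM in the CD133+ Control. Every knock-down library lay below every control library, by a narrow margin, but the log2 fold change of −0.56 (SE 0.20, adjusted p 0.105) did not pass. With the replicate block it was −0.55 (edgeR, adjusted p 0.0271), which passed by its p but not by the fold threshold. In mean, BID was highest in CD133+ Control (32.0 CPM), against 21.7 CPM in CD133+ EIF4G2KD, 24.0 CPM in CD133− EIF4G2KD and 24.7 CPM in CD133− Control. CD133− EIF4G2KD over CD133+ EIF4G2KD gave a log2 fold change of 0.15 (SE 0.20, adjusted p 0.745). BIK, BID and MCL1 were the 3 of 10 members whose CD133+ EIF4G2KD and CD133+ Control libraries did not overlap, beside 10.1% of all genes. Between CD133− EIF4G2KD and CD133+ EIF4G2KD, BIK alone did not overlap, beside 6.51% of all genes. No member was free of overlap in CD133− EIF4G2KD against CD133− Control (1.45% of all genes) or in CD133− Control against CD133+ Control (2.44%).

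BBC3 varied more between replicates than any other member. It held 6.21, 38.0, 77.5, 61.0 and 18.9 CPM in CD133+ EIF4G2KD, against 20.4, 95.8, 104 and 55.8 CPM in the CD133+ Control for replicates 1, 2, 4 and 5. In CD133− cells it held 9.88, 44.5, 74.1, 87.5 and 25.7 CPM in EIF4G2KD, against 19.7, 49.9, 76.2, 118 and 50.1 CPM in Control. Replicate 1 was the lowest library of every population. The coefficient of variation within a population was 56.1% to 72.7%, and the fold change of −0.79 on the log2 scale in CD133+ cells (SE 0.63, adjusted p 0.552) had a 95% interval of −2.09 to 0.52. This edgeR fit took no account of the replicate number. The edgeR fit with the replicate block gave −1.16 (SE 0.20, adjusted p 0.00066), and BBC3 was called. The result for BBC3 in CD133+ cells thus depended on whether the replicate number was fitted.

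BAD and BCL2L11 showed little difference in CD133+ cells. BAD averaged 187 ± 16.8 CPM in CD133+ EIF4G2KD (n = 5) and 182 ± 33.2 CPM in CD133+ Control (n = 4), with SD, and its log2 fold change of 0.035 (SE 0.17, adjusted p 0.954) had a 95% interval of −0.31 to 0.39. BCL2L11 averaged 17.7 ± 7.43 CPM in CD133+ EIF4G2KD (n = 5) and 15.7 ± 4.10 CPM in CD133+ Control (n = 4), with SD, and its log2 fold change of 0.16 (SE 0.33, adjusted p 0.863) had an interval of −0.52 to 0.85.

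Among the anti-apoptotic genes, MCL1, whose short-lived product binds BIK, BID, BBC3, BCL2L11 and BAK1, was higher in CD133+ EIF4G2KD. The knock-down libraries held 216, 245, 200.2, 168 and 197 CPM, against 129, 161, 132 and 139 CPM in CD133+ Control. The populations did not overlap, and the nearest libraries were knock-down replicate 4 and control replicate 2. MCL1 averaged 205 ± 28.2 CPM in the CD133+ EIF4G2KD libraries and 140.0 ± 14.4 CPM in those of the CD133+ Control (SD, n = 5 and 4). The log2 fold change of MCL1 was 0.55 (SE 0.16, adjusted p 0.0374). It passed by its p, as did 7.86% of all genes, but lay under the fold threshold, so MCL1 was not called.

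The pass of MCL1 depended on which libraries were kept. Its adjusted p was 0.0549 to 0.116 without replicate 1, 2, 3 or 5 of the CD133+ EIF4G2KD or without replicate 1, 4 or 5 of the CD133+ Control, each left out alone. Without knock-down replicate 4 or control replicate 2, its fold passed the threshold and MCL1 was called, which made 2 members called in place of 1. With the 4 libraries that stood apart left out, the adjusted p was 0.0695. With the replicate block the log2 fold change was 0.52 (edgeR, adjusted p 0.00561), still under the fold threshold. In CD133− cells MCL1 averaged 152 ± 23.4 CPM in EIF4G2KD and 162 ± 38.3 CPM in Control (SD, n = 5 each). The interaction for MCL1 was 0.64 (SE 0.22, adjusted p 0.163) and did not pass. With the replicate block it was 0.59 (edgeR, adjusted p 0.0368) and passed. Whether the knock-down effect on MCL1 differed between the 2 CD133 populations thus depended on whether the replicate number was fitted. MCL1 was lower in CD133− EIF4G2KD than in CD133+ EIF4G2KD in mean, with a log2 fold change of −0.43 (SE 0.15, adjusted p 0.0877). The block gave −0.44 (edgeR, adjusted p 0.0110) for this difference.

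BCL2L1 averaged 446 ± 124 CPM in the CD133+ EIF4G2KD libraries and 399 ± 24.1 CPM in those of the CD133+ Control (SD, n = 5 and 4), and its log2 fold change of 0.16 (SE 0.21, adjusted p 0.754) had a 95% interval of −0.27 to 0.60. Replicate 5 was its highest library in every population, at 659.6, 584, 626 and 428 CPM in CD133− EIF4G2KD, CD133− Control, CD133+ EIF4G2KD and CD133+ Control. BCL2L2 averaged 54.6 ± 11.7 CPM in the CD133+ EIF4G2KD libraries and 55.1 ± 10.5 CPM in those of the CD133+ Control (SD, n = 5 and 4), with a log2 fold change of −0.014 (SE 0.18, adjusted p 0.988). BCL2L2 shares its strand with the annotated readthrough gene BCL2L2-PABPN1, and how the counting divided shared reads was not stated, so its level is uncertain. MCL1, BID and BBC3 overlap genes on their own strand that were not tested (ADAMTSL4-AS1, RN7SL473P and RN7SL600P for MCL1, a microRNA gene each for BID and BBC3), to which the same limit applies. BAD, BCL2L11 and BCL2L2 overlap tested genes on the opposite strand (GPR137, MIR4435-2HG and PPP1R3E), and the strand setting of the counting was not given in the sources used here. BIK and BAX overlap no annotated gene.

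**Figure D2:**
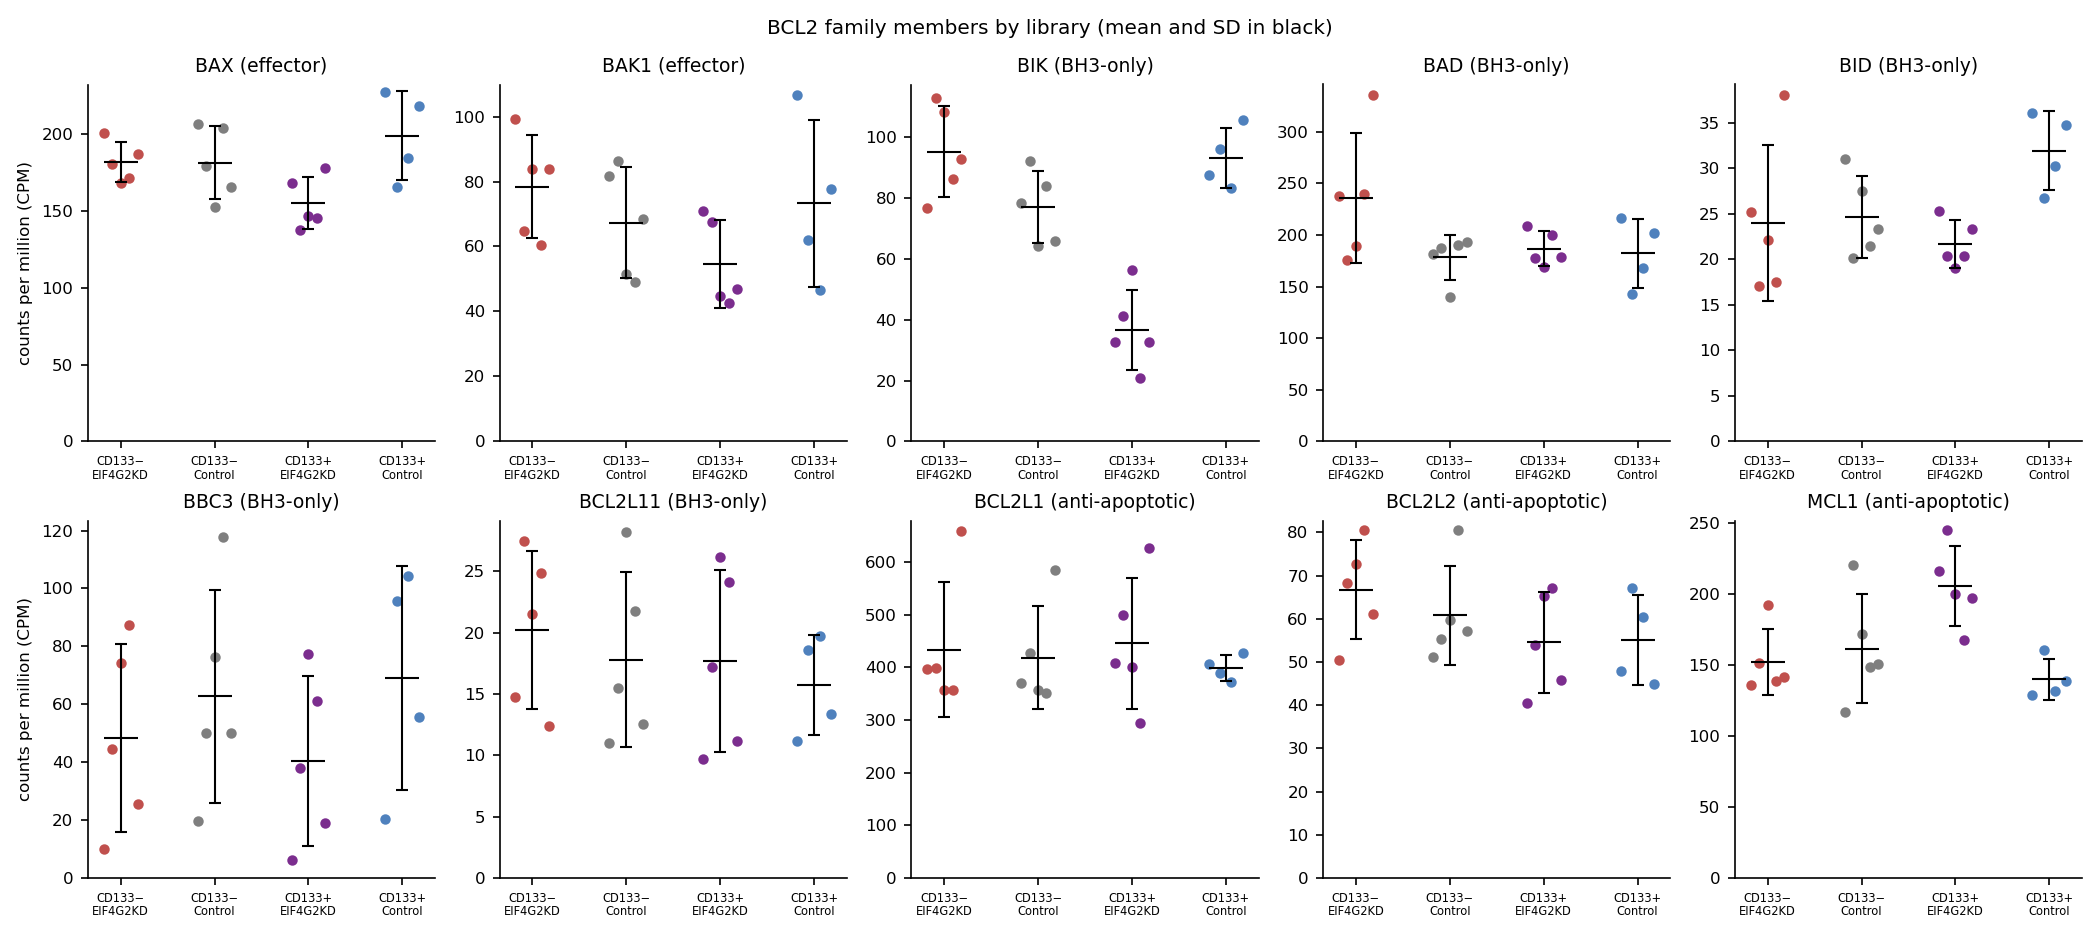
CPM of each member (vertical axes from 0) in every library of the 4 populations, with a point for each library and the mean ± SD in black. BIK in CD133+ EIF4G2KD (36.7 ± 13.2 CPM) lies apart from the other 3 populations, and BBC3 spreads from 6.21 to 118 CPM.

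By the edgeR fit of population means, the 9 members other than BIK gave a single adjusted-p pass in the 5 comparisons (MCL1, CD133+ cells). In CD133− EIF4G2KD over CD133− Control their log2 fold changes ran from −0.39 (BBC3) to 0.40 (BAD), and the smallest adjusted p was 0.422. No member was called there by edgeR, DESeq2 or limma-voom, beside 0.00967% of all genes called by edgeR. At an unadjusted p under 0.05 there were 1 of 10 members and 1092 of all genes. In CD133− Control over CD133+ Control they ran from −0.37 (BID) to 0.21 (MCL1), with no member called by any of these tools and 0.232% of all genes called by edgeR. At an unadjusted p under 0.05 there were 0 members and 449 genes. The interaction ran from −0.65 (BAK1) to 0.64 (MCL1) in these 9, and none passed.

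As a group, the 7 pro-apoptotic members had a median log2 fold change of −0.43 in CD133+ EIF4G2KD over CD133+ Control, and the 3 anti-apoptotic members 0.16, where the median of all 10338 genes was 0.0058. In CD133− EIF4G2KD over CD133− Control the medians were 0.17 for the pro-apoptotic members, 0.05 for the anti-apoptotic members and 0.02 for all genes. A fold change below 0 was found for 6 of 10 members in CD133+ cells and for 3 of 10 in CD133− cells, where 49.2% and 47.6% of all genes lay below 0.

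**Figure D3:**
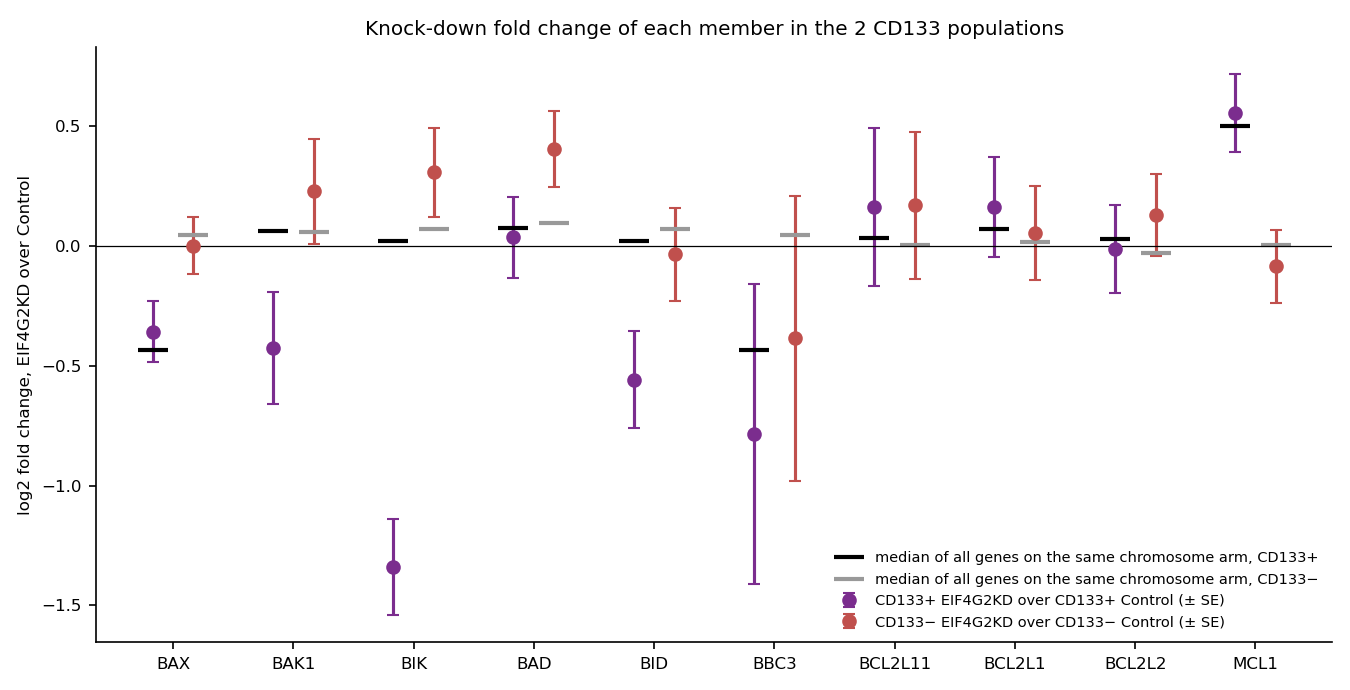
Log2 fold change (EIF4G2KD over Control, ± SE) of each member in CD133+ cells (purple) and CD133− cells (red), with the median of all tested genes on the same chromosome arm as a bar. In CD133+ cells BIK lies at −1.34 with its arm at 0.02, while BAX (−0.36) and MCL1 (0.55) lie near the medians of 19q (−0.43) and 1q (0.50).

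The chromosome arms of the members did not have equal fold changes in CD133+ EIF4G2KD over CD133+ Control. The 402 tested genes of 19q, which holds BAX (chr19:48954815-48961798) and BBC3 (chr19:47220822-47232766), had a median log2 fold change of −0.43. The 445 tested genes of 1q, which holds MCL1 (chr1:150560895-150579738), had a median of 0.50. Minus the median of its arm, the log2 fold change was 0.07 for BAX, 0.06 for MCL1 and −0.35 for BBC3. In each library the median deviation of 19q genes from their mean over all libraries was −0.34 to −0.23 in the 5 CD133+ EIF4G2KD libraries and −0.01 to 0.23 in the 14 others. For 1q it was 0.25 to 0.39 in CD133+ EIF4G2KD and −0.16 to −0.01 in the 14 others. The CD133+ EIF4G2KD libraries thus did not overlap the others on either arm. In CD133− EIF4G2KD over CD133− Control the medians were 0.043 for 19q and 0.0022 for 1q. What part the arms had in the values of BAX, BBC3 and MCL1 was not tested.

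BIK and BID lie on 22q, whose 275 tested genes had a median of 0.02 in the same comparison. BIK (chr22:43110750-43129712) was −1.36 relative to the arm, and 0.727% of the arm's genes had a lower fold change. The 12 tested genes within 1 Mb of BIK had log2 fold changes from −0.36 to 0.33. BID (chr22:17734138-17774770) was −0.58 relative to the arm, and 4.36% of the arm's genes were lower. BAK1 (chr6:33572547-33580293) was −0.49 relative to 6p, and 9.80% of the arm's genes had a lower fold change. BCL2L11, at 0.13, lay farthest from its arm among the other 4 members.

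The balance of the family was described in each library as the mean log2 CPM of the 7 pro-apoptotic members minus that of the 3 anti-apoptotic members. Its 0 has no meaning, since 3′ end counts of different genes are not on a common scale, and only differences between libraries are read. The balance was −1.96, −1.86, −1.55, −1.56 and −2.06 in CD133+ EIF4G2KD, against −1.10, −1.23, −1.05 and −0.95 in the CD133+ Control. All 5 knock-down libraries lay below all controls. The means were −1.80 ± 0.23 (SD, n = 5) in CD133+ EIF4G2KD and −1.08 ± 0.12 (SD, n = 4) in CD133+ Control, a difference of −0.71 (SE 0.12). The size of this difference depends on the summary used, and with medians over the members in place of means it was −1.63. A median over so few genes is the value of a single gene in each library. On the anti-apoptotic side that gene was MCL1 in every library. On the pro-apoptotic side it was BIK in most CD133+ EIF4G2KD libraries and BIK, BAK1 or BBC3 in the CD133+ Control. The −1.63 thus sets single genes against each other and does not measure a larger shift of the family. In CD133− cells the balance averaged −1.29 ± 0.09 in EIF4G2KD and −1.33 ± 0.16 in Control (SD, n = 5 each), a difference of 0.041 (SE 0.082). The CD133+ Control thus had the highest mean balance and the CD133+ EIF4G2KD the lowest. CD133− Control minus CD133+ Control was −0.25 (SE 0.093), with overlap. CD133− EIF4G2KD minus CD133+ EIF4G2KD was 0.51 (SE 0.11), without overlap, and 0.34 (SE 0.13), with overlap, when BIK was left out.

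The difference in CD133+ cells was recomputed with members left out of the means. Without BIK it was −0.57 (SE 0.13), and the populations still did not overlap. Without BIK and BBC3 it was −0.44 (SE 0.15), and they overlapped. Without the members on 19q and 1q (BAX, BBC3 and MCL1) it was −0.49 (SE 0.14), and they did not overlap. That set still held BIK, and the sets without BIK still held BAX and MCL1. The balance without BIK and all members on 19q and 1q was not computed, so these values do not show a difference apart from those genes. With all members and without the 4 libraries that stood apart, it was −0.78.

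Single pairs of members with opposed roles were set against each other in the same way. BIK minus MCL1 in log2 CPM averaged −2.53 ± 0.43 in the CD133+ EIF4G2KD libraries and −0.58 ± 0.15 in those of the CD133+ Control (SD, n = 5 and 4), a difference of −1.94 (SE 0.21). Each of these genes alone had no overlap between the populations, in opposite directions. The lack of overlap of this pair follows from that and is no further result. BIK minus BCL2L1 differed by −1.51 (SE 0.24) and BAX minus MCL1 by −0.90 (SE 0.20) between the same populations, in each case with no overlap. BAX lies on 19q and MCL1 on 1q, whose genes had median log2 fold changes of −0.43 and 0.50 between these populations. Relative to their arms, BAX was at 0.07 and MCL1 at 0.06. The BAX and MCL1 pair therefore does not show a shift apart from the arms, whose part in it was not tested. BAX minus BCL2L1 differed by −0.47 (SE 0.18), with overlap. Between CD133− EIF4G2KD and CD133− Control, BIK minus MCL1 differed by 0.37 (SE 0.17), and the other 3 pairs by −0.03 to 0.27 (SE 0.24 to 0.28), all with overlap.

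**Figure D4:**
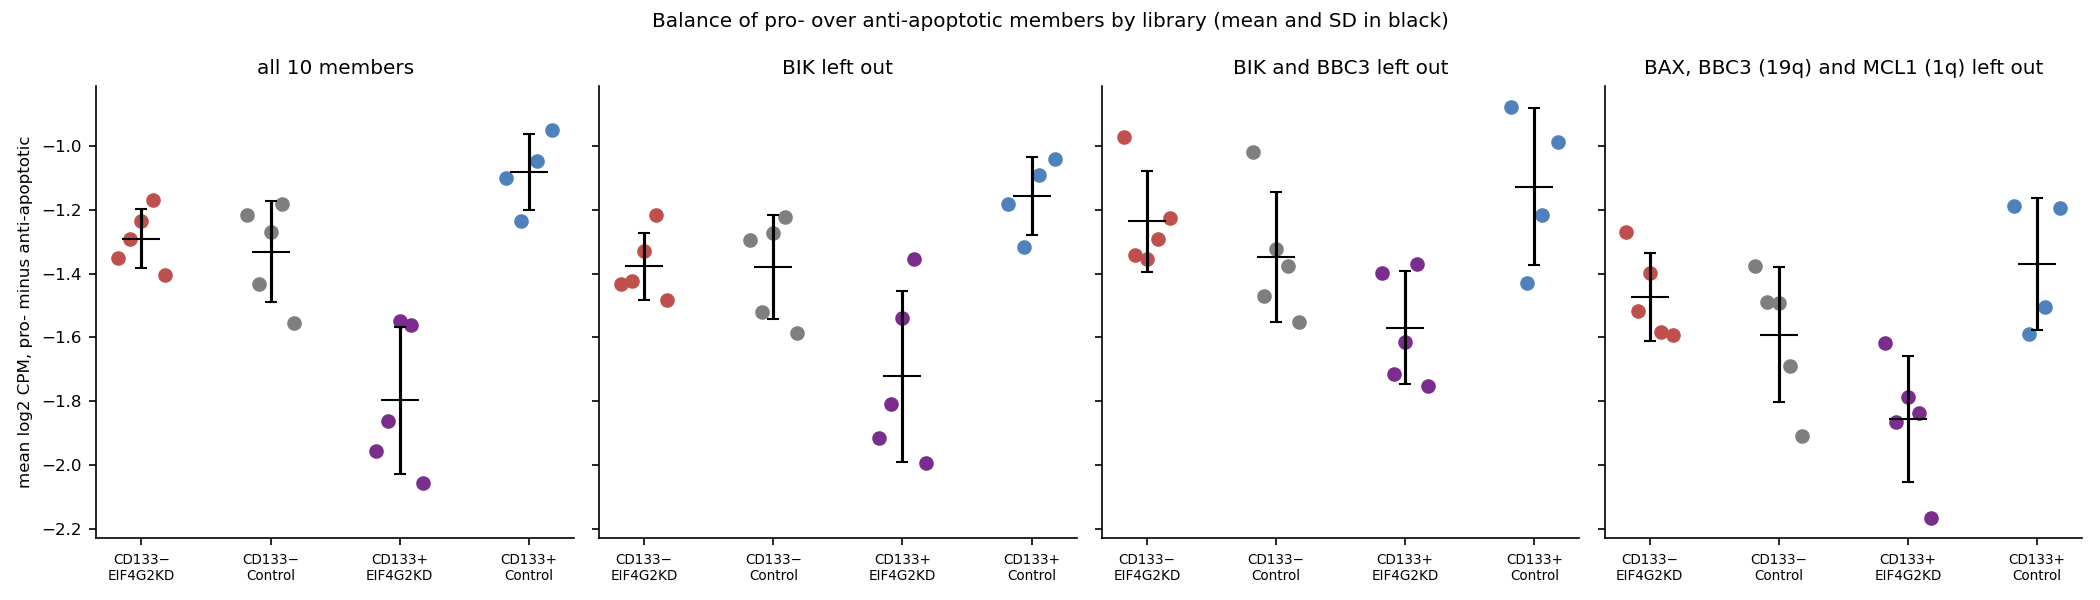
Mean log2 CPM of pro-apoptotic minus anti-apoptotic members in each library, with mean ± SD in black, for all 10 members, without BIK, without BIK and BBC3, and without the members on 19q and 1q. The CD133+ EIF4G2KD libraries (−1.80 ± 0.23 with all members) lie below the CD133+ Control libraries (−1.08 ± 0.12) in each panel, with overlap only where BIK and BBC3 are left out.

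Several members differed between the replicate numbers of the labels across all 4 populations. An F test of the replicate number beside the populations, added after the data were seen, passed in 31% of all genes (adjusted p under 0.05). It passed for BBC3, BCL2L11, BCL2L1, BAK1, BCL2L2 and MCL1 (the last at an adjusted p of 0.04997), and not for BIK (adjusted p 0.292), BAX (0.121), BAD (0.0528) or BID (0.0920). BBC3 had the largest range of the 10 members, 2.78 on the log2 scale between the mean deviations of replicate 4 (1.05) and replicate 1 (−1.73), which put it at rank 31 of 10338 genes. BCL2L11 (−0.53 in replicate 1 and −0.43 in replicate 5, against 0.18 to 0.51 in the others) and BCL2L2 (−0.30 and −0.17, against 0.06 to 0.30) had the same pattern of low replicates 1 and 5. The labels do not say what the number marks.

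**Figure D5:**
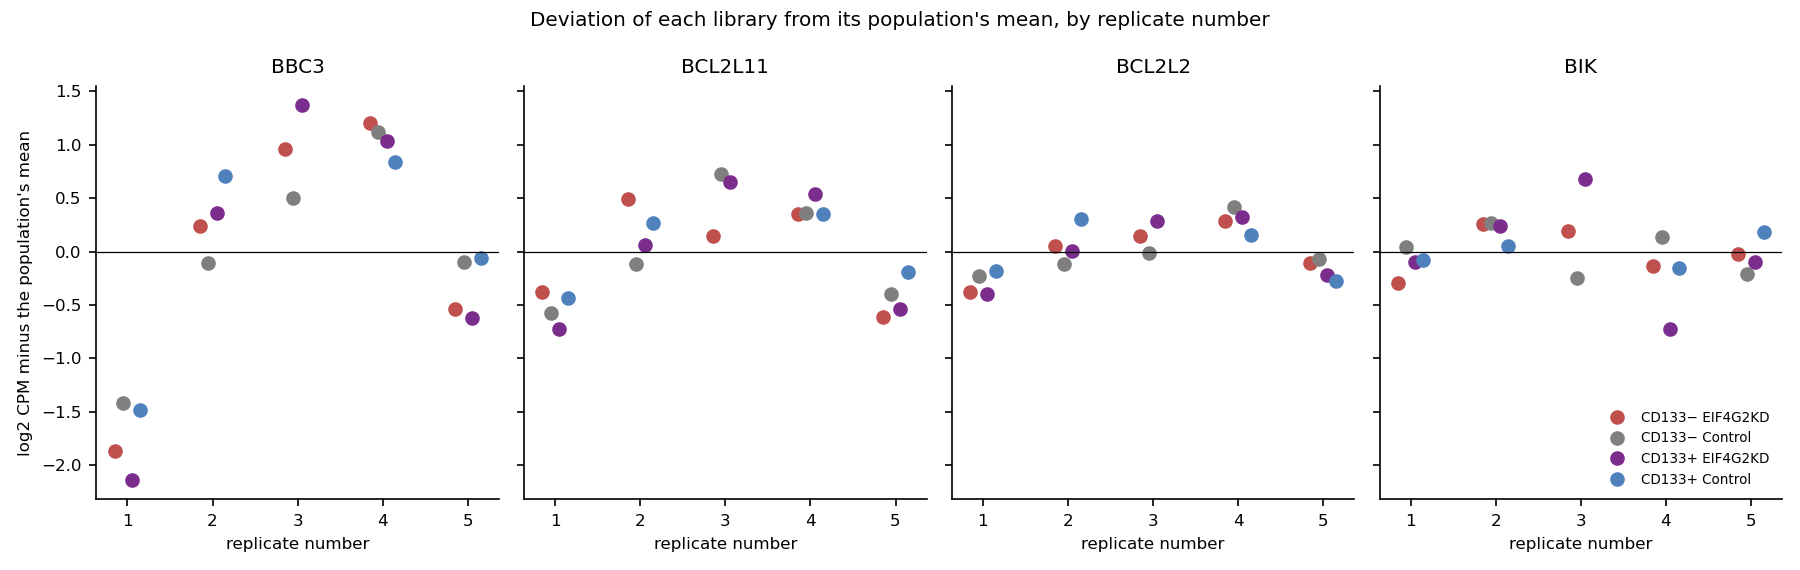
Deviation of each library's log2 CPM from its population's mean (vertical axis) by replicate number (horizontal axis) for BBC3, BCL2L11, BCL2L2 and BIK, with a colour for each population. BBC3 is lowest in replicate 1 of every population and highest in replicate 3 or 4, whereas the deviations of BIK in replicates 3 and 4 lie on both sides of 0.

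The genes most like BIK across the 19 libraries, by Pearson's r of log2 CPM over 10337 other genes, were DCTN3 (r = 0.95, a dynactin subunit), ICAM2 (0.93, an adhesion molecule), CERS1 (0.91, a ceramide synthase), FUOM (0.91, fucose mutarotase) and RAPGEF3 (0.89, the cAMP sensor EPAC1). The most opposed were COG2 (−0.90, a Golgi tethering subunit), SELENOM (−0.90, a selenoprotein of the endoplasmic reticulum) and SCCPDH (−0.89). The 19 points share populations, so these values are a description and carry no p. FUOM averaged 4.21 ± 2.56 CPM in CD133+ EIF4G2KD (n = 5) and 68.1 ± 12.5 CPM in CD133+ Control (n = 4), and SELENOM averaged 48.4 ± 7.35 CPM in CD133+ EIF4G2KD (n = 5) and 16.0 ± 4.36 CPM in CD133+ Control (n = 4), with SD. None of the 5 most similar genes lies on 22q, while SELENOM does, and COG2 and SCCPDH lie on 1q.

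Other genes of the pathway were read from fixed lists. Of 15 other BCL2 family genes listed, 9 were tested and none passed edgeR's adjusted p in any of the 5 comparisons, with 0 to 3 at an unadjusted p under 0.05. In CD133+ EIF4G2KD over CD133+ Control they ran from −0.61 for BCL2L12, a divergent family member, to 0.67 for BNIP3, which acts in mitophagy. Of 13 genes in a list of caspases, apoptosome genes and other mitochondrial proteins (DIABLO, HTRA2, AIFM1 and ENDOG), 12 were tested. ENDOG, a mitochondrial endonuclease and neither a caspase nor part of the apoptosome, passed alone. No caspase gene passed, nor did APAF1 or CYCS. ENDOG averaged 98.9 ± 4.63 CPM in the CD133+ EIF4G2KD libraries and 146 ± 24.6 CPM in those of the CD133+ Control (SD, n = 5 and 4), with a log2 fold change of −0.56 (SE 0.15, adjusted p 0.0228) that stayed under the fold threshold. It was higher in CD133− EIF4G2KD than in CD133+ EIF4G2KD by 0.68 (SE 0.14, adjusted p 0.00479), where 7.71% of all genes passed, and its interaction was −0.94 (SE 0.21, adjusted p 0.0177), where 1.94% passed. None of 4 inhibitor of apoptosis genes, 8 death receptor genes and 17 regulators of the family (FOXO3, DDIT3, VDAC2 and others) passed in any comparison, with 0, 0 to 2 and 0 to 2 of them at an unadjusted p under 0.05. In CD133− EIF4G2KD over CD133− Control (0.00967% of all genes passing) and CD133− Control over CD133+ Control (0.261%), no gene of these lists passed. Of the 5 epithelial markers, the keratins KRT18 and KRT19 were higher in CD133− EIF4G2KD than in CD133+ EIF4G2KD, by 0.47 (adjusted p 0.0287) and 0.66 (adjusted p 0.0416) on the log2 scale. The other 3 did not pass, with log2 fold changes of −0.58 for EPCAM (adjusted p 0.0563), 0.94 for KRT8 (adjusted p 0.0628) and 0.043 for CDH1 (adjusted p 0.899). The part of these markers in the result for BIK was not tested.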

How the data were processed

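Bulk MARS-seq was analysed in 19 libraries of 4 populations, grouped by their labels. The authors deposited raw counts per gene, made with cutadapt, STAR 2.4.2a and HTSeq on hg38 in the UTAP pipeline (the notes list a mouse build too). Their deposited normalized signal, the counts divided by a DESeq2 size factor per library, served here only for the mean normalized count. Columns with the authors' own log2 fold changes and p-values were left out. No 2 libraries of a population were duplicates (36 pairs, chi-square per degree of freedom 4.70 to 27.0).

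Low genes were removed with filterByExpr (minimum count 10, minimum total 15). A quasi-likelihood fit of the 4 population means after TMM scaling (edgeR 4.0.16, R 4.3.3), tested on simulated data, gave the 4 comparisons and the interaction, with Benjamini-Hochberg adjustment over 10338 genes. Log2 CPM used a prior count of 2. GENCODE gave positions for 10023 of the tested genes (96.95%). Named genes were the members, EIF4G2, PROM1, up to 4 genes per list with the smallest adjusted p under 0.05, and the 5 genes most and 3 least like BIK; BNIP3, BCL2L12, FUOM and SELENOM were picked out after their values were seen. Members and lists were chosen with earlier results of these data known. Alternatives were DESeq2 1.42.0, limma-voom (limma 3.58.1), RLE scaling, no filter, a replicate block, the compared populations alone, other thresholds and each library left out. Leaving out 4 libraries or members of the balance was chosen after seeing the data.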

Additional observations from a re-analysis of the deposited data

Results flagged for a closer look

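The knock-down effect on BIK differed between the sorted populations by −1.65 on the log2 scale (edgeR interaction, adjusted p 0.00194), with a lower level in all 5 CD133+ EIF4G2KD libraries and no called change in CD133− cells.

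Of 40 sets of libraries (10 members in 4 populations), 4 held a library farther from the rest than Dixon's criterion allows, where chance gives about 2. BCL2L1 in replicate 5 of the CD133− EIF4G2KD was 659.6 CPM, against 398 CPM in the next library. MCL1 in replicate 3 of the CD133− EIF4G2KD was 192 CPM, against 151 CPM in the next. BAD in replicate 3 of the CD133− Control was 139.9 CPM, against 181 CPM in the next. BCL2L2 in replicate 4 of the CD133− Control was 80.6 CPM, against 59.7 CPM in the next.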

How the results depend on the processing

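BIK kept its call in CD133+ EIF4G2KD over CD133+ Control, in CD133− EIF4G2KD over CD133+ EIF4G2KD and in the interaction under every alternative run, with log2 fold changes of −1.55 to −1.20, 1.23 to 1.57 and −1.85 to −1.51. In CD133+ cells the count of called members was 2 in place of 1 with limma-voom (BIK and MCL1), with the adjusted p alone (BIK and MCL1) and with the replicate block (BIK and BBC3), and 1 to 2 with single libraries left out. The median in place of the mean moved the balance difference to −1.63, a value that rests on single genes in each library. BCL2L11 in CD133+ cells reversed to −0.024 with the block and −0.040 without the 4 libraries that stood apart, and ran from −0.035 to 0.33 with single libraries left out, as BAD did from −0.066 to 0.11 and BCL2L2 from −0.11 to 0.092. With single libraries left out, folds in CD133+ cells that did not pass also ran widely for BAK1 (−0.60 to −0.20), BBC3 (−1.19 to −0.50) and BCL2L1 (0.0043 to 0.28). BID passed in CD133+ cells with limma-voom (adjusted p 0.0345) and without CD133− EIF4G2KD replicate 5 (0.0430), and MCL1 passed between CD133− EIF4G2KD and CD133+ EIF4G2KD without CD133− EIF4G2KD replicate 3 (−0.54, adjusted p 0.0377). The causes were not tested.

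Libraries of the same replicate number deviated together in 24 of 27 pairs (median r 0.42, lowest −0.23, highest 0.70; other pairs had a median r of −0.094). A library correlated best with its own number in 12 of 19 cases. Since some same-numbered pairs did not deviate together, the numbers were not taken as a pairing. With the replicate block BIK was −1.42 (adjusted p 2.7e-05) in CD133+ cells, BBC3 −1.16 (0.00066), BAX −0.32 (0.0335), BID −0.55 (0.0271) and MCL1 0.52 (0.00561), all passing the adjusted p. The block also passed BAK1 (0.55, adjusted p 0.0119) and MCL1 (−0.44, 0.0110) between CD133− EIF4G2KD and CD133+ EIF4G2KD, and MCL1 in the interaction (0.59, 0.0368), where it called 2 members. Among the other lists, the block passed 1 higher and 1 lower gene of the other BCL2 family in CD133+ cells, between the knock-down populations and in the interaction. Between the knock-down populations it also passed 1 lower death receptor gene, 1 higher and 1 lower regulator, and 3 higher and 1 lower epithelial markers. It passed 1 lower epithelial marker in CD133+ cells and 1 in the interaction.

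Over all genes the block called 80 in place of 1 in CD133− EIF4G2KD over Control, 1025 in place of 619 in CD133+ EIF4G2KD over Control, 54 in place of 24 between the Control populations, 962 in place of 606 between the knock-down populations and 588 in place of 196 in the interaction. DESeq2 called 39 in CD133− cells, 44 between the Control populations and 307 in the interaction. In CD133− cells and between the Control populations, limma-voom called 0 and 42, and a fit of only the compared populations 0 and 13, and leaving out the 4 libraries gave 0, 271 and 108 in CD133− cells, between the knock-down populations and in the interaction. BIK rested on as few as 44 counts in a library, which limits the precision of its lowest values.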
